A study of Mus musculus with 10 samples.

Results

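The MHC class I antigen presentation genes were examined as a list of 10 genes chosen by symbol: the heavy chains H2-D1, H2-K1, H2-T22, H2-T23 and H2-M3, the light chain B2m, the peptide transporter subunits Tap1 and Tap2, the loading factor Tapbp and the transactivator Nlrc5. Of these, 9 had a row among the 23930 amplicons of the count table, and all 9 passed the filter on low counts. The level of H2-T23 was not analysed here. The list was drawn up knowing that H2-D1 and H2-T22 had lower levels in Srgn-/- than in Srgn+/+ mice, so the differences of its genes between the genotypes are given as a description. Counts of members past the threshold of a test stand beside the share over all genes, and nothing is read from them.

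MHC class I molecules show peptides from the inside of a cell to CD8 T cells. Proteins are cut by the proteasome, the peptides are pumped into the endoplasmic reticulum by the TAP transporter, and they are loaded with the help of tapasin onto a heavy chain paired with beta-2-microglobulin. The heavy chain genes are transcribed in most nucleated cells, at higher levels in leukocytes, and respond to interferons, NF-kappa B and the transactivator NLRC5. In obese visceral fat, adipocytes, macrophages and lymphocytes can all carry the complex.

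Total RNA came from epididymal white adipose tissue, a visceral depot, of male C57BL/6 mice aged 18 weeks, all of which had eaten food high in sucrose and fat for 8 weeks. The 5 wild-type mice were Srgn+/+ and the 5 knockout mice were Srgn-/-, which lack serglycin, a proteoglycan best known from the granules of immune cells. The labels do not give the origin of the deleted allele, nor whether wild-type and knockout mice were littermates. Libraries are numbered 1 to 5 within each genotype, and the numbers pair no animals. In bulk tissue, fewer cells of a type and less RNA per cell cannot be told apart.

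Libraries held 7824764 to 10757779 reads. Reads of Srgn itself numbered 776 to 1301 per wild-type library and 0 to 12 per knockout library (log2 fold change -8.18, SE 0.508). All 7 adipocyte markers examined, such as Adipoq and Plin1, were detected and tested, and their summed level lay between 28433 and 36413 CPM in the 10 libraries (CPM, read counts per library scaled to a common depth with TMM factors). RNA of the epididymis was present in wild-type 4 and knockout 3 and 5, at 462, 3533 and 1012 CPM summed over 11 epididymis markers, against at most 16.1 CPM in the other libraries. The member genes are given with and without these 3 libraries below.

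The promoters of some of the heavy chain genes share motifs. RefSeq promoters (GRCm38.p6) were found for 8 of the 10 genes, at the most upstream start of each gene. The stretch just before the start is printed for the heavy chains with a count and for B2m, 5′ to 3′ on the strand of the gene. Capitals mark 4 motifs sought on both strands in the 250 bases before the start: the kappa B element (the capitals that begin with GGGG), the interferon response core TTTCNNTT, the core TGACG of the X2 box and the core ATTGG of the Y box. X and Y boxes are known as the docking sites of the RFX, CREB and NF-Y proteins, through which NLRC5 is recruited.
H2-D1, chr17:35262889-35263093, plus strand: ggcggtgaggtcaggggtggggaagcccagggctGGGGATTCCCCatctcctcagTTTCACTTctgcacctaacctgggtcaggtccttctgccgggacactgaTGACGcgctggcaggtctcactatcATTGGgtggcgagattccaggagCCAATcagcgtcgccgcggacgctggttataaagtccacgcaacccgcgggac
H2-K1, chr17:34000348-34000552, minus strand: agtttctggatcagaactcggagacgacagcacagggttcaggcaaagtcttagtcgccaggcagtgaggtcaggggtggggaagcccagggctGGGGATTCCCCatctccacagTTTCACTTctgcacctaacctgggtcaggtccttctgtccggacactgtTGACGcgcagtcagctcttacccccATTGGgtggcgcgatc
H2-M3, chr17:37270029-37270233, plus strand: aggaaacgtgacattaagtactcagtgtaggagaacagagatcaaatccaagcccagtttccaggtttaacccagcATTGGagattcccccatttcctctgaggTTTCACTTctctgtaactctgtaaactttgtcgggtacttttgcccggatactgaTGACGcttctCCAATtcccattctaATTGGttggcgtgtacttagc
B2m, chr2:122147482-122147686, plus strand: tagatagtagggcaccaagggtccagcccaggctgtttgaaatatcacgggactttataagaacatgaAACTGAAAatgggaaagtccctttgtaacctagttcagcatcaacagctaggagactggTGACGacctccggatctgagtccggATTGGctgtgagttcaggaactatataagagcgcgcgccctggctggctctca
H2-T22, chr17:36042743-36042947, minus strand: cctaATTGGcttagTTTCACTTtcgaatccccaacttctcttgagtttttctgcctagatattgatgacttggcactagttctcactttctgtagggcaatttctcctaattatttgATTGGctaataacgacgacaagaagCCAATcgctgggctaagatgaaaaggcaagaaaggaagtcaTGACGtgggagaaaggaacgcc

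H2-D1, H2-K1, H2-M3 and B2m each held TGACG followed, 20 bases further on, by ATTGG on the strand of the gene. Of 27025 promoters, 29 (0.107%) held this pair at a gap of 19 to 21 bases, a range set after seeing the gap in these 4. Single motifs were common: ATTGG occurred in 34.5% of promoters, TTTCNNTT in 21.6% and TGACG in 17.8%. H2-D1 and H2-K1 also held the full kappa B element, found in 7 promoters in all (0.0259%), 161 to 171 bases before the start of H2-D1 and 101 to 111 before that of H2-K1. H2-T22 held TTTCACTT like H2-D1, H2-K1 and H2-M3, but its TGACG lay after its ATTGG cores, 18 to 22 bases before the start. The promoter of H2-T23, which was also searched, held no TGACG. The pair was absent from H2-T22, H2-T23, Tap1 and Tapbp. A match in letters is a description of the sequence and not a measured binding site.

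Heavy chain genes are close relatives, which bears on how far 1 short amplicon can tell them apart. In GENCODE M21 transcripts, 14.2% of the 100-base windows of H2-T22 were found without a mismatch in a transcript of another gene, most often H2-T10 (9.81%), which was not analysed here. For H2-D1 the share was 4.64%, most often with H2-Q1 (4.24%). H2-K1, H2-M3, B2m, Tap1, Tap2 and Nlrc5 shared no window of 100 bases, and Tapbp shared 0.107%. With windows of 50 bases the shares were 44.7% for H2-T22, 14.3% for H2-D1 and 8.79% for H2-K1. Without the amplicons' positions, how specific each one is was not tested.

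H2-D1 and H2-K1 are the classical heavy chains, which present peptides to CD8 T cells. H2-D1 had 2467, 2923, 2570.3, 2849 and 2657.5 CPM in wild-type 1 to 5 and 1915, 1434, 1376, 2043 and 1896 CPM in knockout 1 to 5. The highest knockout library lay below the lowest wild-type library, with knockout 2 and 3 lowest. The means were 2693 ± 190.2 CPM in wild-type libraries and 1733 ± 305 CPM in knockout (SD, n = 5), so that the level in knockout was 64.3% of that in wild-type (log2 fold change -0.64, SE 0.130). For H2-K1 the wild-type libraries 1 to 5 stood at 1281, 2416, 3196, 2367 and 3014 CPM and the knockout libraries 1 to 5 at 2551, 1257, 1736, 2693 and 2112 CPM. Wild-type 1 and knockout 2 were the low libraries, and the groups overlapped widely: knockout 1 and 4 lay above wild-type 2 and 4. The means of H2-K1 were 2455 ± 749.7 and 2069.7 ± 590.2 CPM (log2 -0.25, SE 0.257), a difference smaller than the spread within either group. Without wild-type 1 its log2 fold change was -0.41, and without knockout 2 it was -0.11.

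The nonclassical heavy chains are less variable in sequence between individuals and have more specialised ligands. H2-T22, a heavy chain known as a ligand of some gamma-delta T cells, had 234, 233, 203, 208 and 170.3 CPM in wild-type 1 to 5 and 138, 126, 118, 163 and 161 CPM in knockout 1 to 5. The groups did not overlap, although wild-type 5 and knockout 4 and 5 lay close together. The means were 209.6 ± 26.1 and 141 ± 20.1 CPM (log2 -0.57, SE 0.119), so the level in knockout was 67.3% of that in wild-type. H2-M3, which presents peptides that begin with N-formylmethionine, had the fewest reads of the members, with 53 to 117 in a library. It ranged from 5.29 to 11.9 CPM in wild-type (median 9.69) and from 5.83 to 11.1 CPM in knockout (median 9.29), and the groups overlapped fully (log2 -0.03, SE 0.236).

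B2m, the light chain that pairs with these heavy chains, stood at 3062, 3669, 3868, 3384 and 3961 CPM in the wild-type libraries and at 3908, 3221, 3327, 4608 and 3648 CPM in the knockout libraries. Its means were 3589 ± 368 and 3742 ± 555 CPM (log2 0.06, SE 0.126). It was the only member with a higher mean in knockout, by less than the spread between animals.

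Tap1, a subunit of the peptide transporter, had 49.2, 54.0, 80.3, 50.6 and 41.1 CPM in wild-type 1 to 5 and 42.8, 27.6, 31.6, 42.0 and 33.6 CPM in knockout 1 to 5. Wild-type 3 was far above the rest, and wild-type 5 lay just below knockout 1 and 4, so that the groups overlapped (log2 -0.63, SE 0.181). Without wild-type 3 the log2 fold change of Tap1 was -0.46. Tap2, the partner subunit, had 62.7, 77.9, 108.9, 78.9 and 68.2 CPM in wild-type libraries and a narrow range of 64.6 to 74.4 CPM in knockout (log2 -0.23, SE 0.133). Its difference rested on wild-type 3, without which it was -0.08. Tapbp, which encodes tapasin, had 699.9 to 1029 CPM in wild-type (median 969) and 567 to 1009 CPM in knockout (median 875; log2 -0.18, SE 0.164), and wild-type 1 and knockout 2 and 3 were again the low libraries. Without knockout 2 the log2 fold change of Tapbp was -0.07.

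Nlrc5, the transactivator of class I genes, had 22.2, 28.0, 40.0, 28.9 and 26.9 CPM in wild-type 1 to 5 and 22.6, 17.6, 23.5, 19.8 and 22.1 CPM in knockout 1 to 5. The groups overlapped only through wild-type 1, which lay below knockout 1 and 3. Its means were 29.2 ± 6.55 and 21.1 ± 2.39 CPM (log2 -0.47, SE 0.151, and -0.33 without wild-type 3, the highest library).

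**Figure D1:**
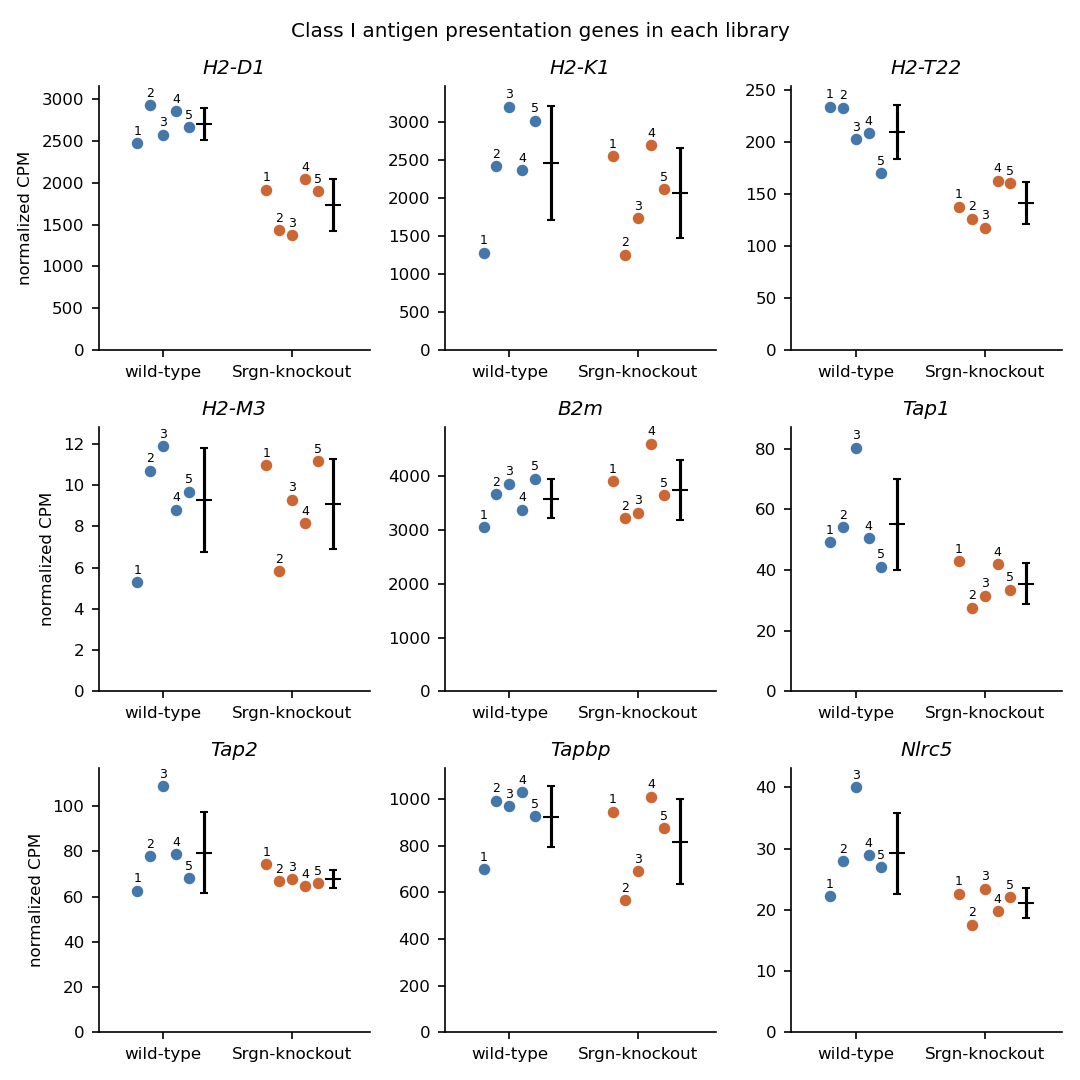
Normalized CPM (vertical axes, each starting at 0) of the 9 genes in the 5 wild-type (blue) and 5 Srgn-knockout (orange) libraries. Each point is 1 library with its number, and the black marks are the mean ± SD. The groups are apart for H2-D1 and H2-T22, while for H2-K1, H2-M3 and Tapbp wild-type 1 sits among the low knockout libraries.

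Over all 12719 genes tested, the edgeR quasi-likelihood test with Benjamini-Hochberg adjustment called 1 gene (0.00786%) at an adjusted p under 0.05, Srgn itself, and 0 of the 9 class I genes. At an unadjusted p under 0.05, 1632 genes were found, 771 of them lower in knockout (6.06%), and 4 of the 9 members were among those. Lower means in knockout were seen for 8 of the 9, against 50.3% of all genes, and 2 of the 9 had groups that did not overlap, lower in knockout, against 1.38% of all genes, and 0 of the 9 had such groups higher in knockout, against 1.39%. DESeq2, an alternative test, called 2 of the 9 as lower, against 0.841% of all genes. The median log2 fold change of the 9 was -0.25, and that of all genes was -0.0014. Among the members, log2 fold changes ran from -0.64 for H2-D1 to 0.06 for B2m. H2-D1, Tap1, H2-T22 and Nlrc5 lay between -0.64 and -0.47, whereas H2-K1, Tap2, Tapbp, H2-M3 and B2m lay between -0.25 and 0.06.

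Ratios within a library do not depend on how libraries are scaled. The log2 ratio of H2-D1 to B2m, centred over all libraries, was 0.45, 0.44, 0.17, 0.52 and 0.19 in wild-type 1 to 5 and -0.27, -0.40, -0.51, -0.41 and -0.18 in knockout 1 to 5. These ratios did not overlap between the groups, and their mean was 0.71 lower in knockout. H2-D1 was listed with its lower level in knockout known, and B2m was the only member with a higher mean there. A lower ratio in knockout thus followed from the choice of genes, and nothing is read from it. How many other gene pairs lack overlap was not examined. The ratio of H2-T22 to B2m was 0.63 lower on the log2 scale and overlapped only because wild-type 5 stood at -0.13 and knockout 5 at -0.09. The ratio of H2-D1 to H2-K1 was 0.42 lower with wide overlap. It was highest in wild-type 1, at 0.96, the library with the second lowest H2-K1 level. Mean log2 differences of -0.29 for H2-K1 over B2m and -0.41 for Tap1 over Tap2 also came with overlapping groups.

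Leukocyte marker levels varied between animals of the same genotype, and the correlations of the 9 genes with them ran from -0.0344 for H2-T22 to 0.951 for H2-K1. Differences between these correlations were not tested. The 8 pan-leukocyte markers (Ptprc, Cd52, Cd53, Laptm5, Coro1a, Lcp1, Arhgdib and Cytip) had a summed level that ran from 698 to 2308 CPM among wild-type and from 756 to 1898 CPM among knockout libraries, and 7 of the 8 had lower means in knockout. The mean of the 8 on the centred log2 scale was lowest in wild-type 1 (-0.85) and knockout 2 (-0.83) and 3 (-0.67), and highest in wild-type 5 (0.74), wild-type 3 (0.53) and knockout 1 (0.51). With the group means subtracted, H2-K1 followed this marker mean over the 10 libraries with Pearson's r = 0.951 (exact permutation within groups, two-sided, p = 0.000625, adjusted p = 0.0169 over 27 relations) and Spearman's rho = 0.891 (exact permutation p = 0.00236, adjusted p = 0.0488). B2m followed it with r = 0.828 (exact permutation p = 0.00472, adjusted p = 0.0425) and rho = 0.879 (exact permutation p = 0.00361, adjusted p = 0.0488). Without wild-type 1 and knockout 2, the libraries farthest from the median, r was 0.863 for H2-K1 and 0.683 for B2m. Tapbp had r = 0.849 (exact permutation p = 0.0113, adjusted p = 0.0531; rho = 0.612, exact permutation p = 0.0814, adjusted p = 0.154) and H2-M3 r = 0.814 (exact permutation p = 0.0179, adjusted p = 0.0538; rho = 0.697, exact permutation p = 0.0449, adjusted p = 0.154), just short of the threshold. Without the same libraries r was 0.620 for Tapbp and 0.323 for H2-M3. H2-D1 had r = 0.682 (exact permutation p = 0.0390, adjusted p = 0.0877) and rho = 0.624 (exact permutation p = 0.0716, adjusted p = 0.154), which did not pass. H2-T22 had r = -0.0344 (exact permutation p = 0.928, adjusted p = 0.928) and rho = -0.103 (exact permutation p = 0.797, adjusted p = 0.828).

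**Figure D2:**
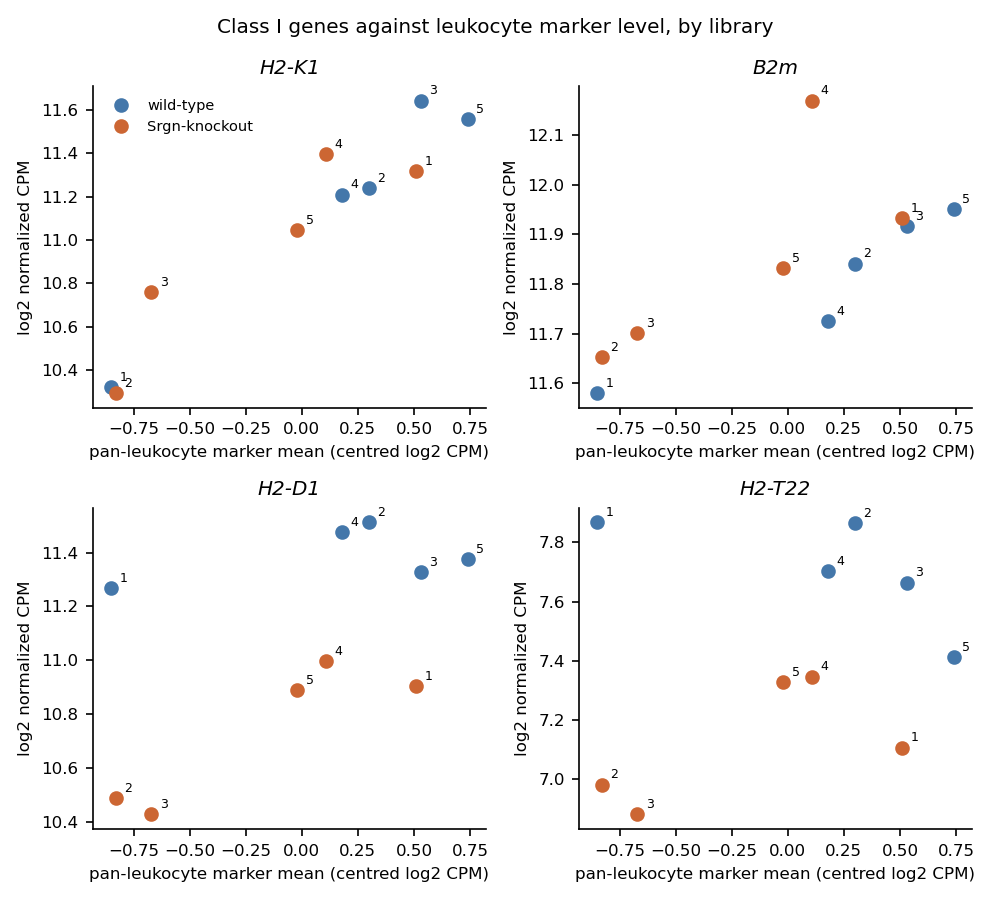
Log2 normalized CPM (vertical axes, which do not start at 0) of H2-K1, B2m, H2-D1 and H2-T22 against the mean of 8 pan-leukocyte markers (horizontal axes, centred log2 CPM). Each point is 1 library with its number, blue for wild-type and orange for Srgn-knockout. H2-K1 lies along a single band in both genotypes. H2-D1 and H2-T22 were listed with their lower levels in knockout known, and every wild-type library lies above every knockout library for them.

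As an alternative to the comparison above, the pan-leukocyte mean was made a covariate of the fit. H2-K1 went from a log2 fold change of -0.25 to 0.06 (SE 0.109), Tapbp from -0.18 to -0.04 (SE 0.104), Tap2 from -0.23 to -0.15 (SE 0.125), B2m from 0.06 to 0.15 (SE 0.095), and H2-M3 from -0.03 to 0.19 (SE 0.184). H2-D1 went from -0.64 to -0.57 (SE 0.104), H2-T22 from -0.57 to -0.58 (SE 0.115) and Tap1 from -0.63 to -0.55 (SE 0.164). Nlrc5 went from -0.47 to -0.37 (SE 0.139). The changes of H2-K1, H2-M3 and Tapbp were the largest, and differences between the changes were not tested. Of the 9 genes, 0 were called in this fit, in which 12 of all genes were called, 11 of them lower (0.0865%). The covariate measures leukocytes as a whole and not their kinds. Of single kinds, the summed level of 10 T-cell markers was 28.6 to 76.3 CPM in wild-type libraries and 18.0 to 26.3 CPM in knockout, and that of the 6 B-cell markers with a row was 25.4 to 46.1 and 15.2 to 21.9 CPM, with no overlap in either. All 9 tested T-cell markers and all 6 tested B-cell markers had lower means in knockout, against 50.3% of all genes. Singly, 1 of the 9 and 2 of the 6 had groups that did not overlap, lower in knockout, against 1.38% of all genes. The T-cell sums lay close, at 26.3 CPM in knockout 3 and 28.6 CPM in wild-type 4. How often sums of other genes lack overlap was not examined. The 10 macrophage markers summed to 1677 to 5851 and 1765 to 3420 CPM, and the 6 dendritic cell markers to 47.8 to 213.7 and 50.7 to 96.1 CPM. The 7 NK-cell markers summed to 18.6 to 42.7 and 12.1 to 199.8 CPM, and all 3 sums overlapped. The NK-cell value of 199.8 CPM was that of knockout 3, against 12.1 to 20.6 CPM in the other knockout libraries. Lower means in knockout were also seen for all 9 tested macrophage markers, 5 of 6 dendritic cell markers and 5 of 6 NK-cell markers. Groups that did not overlap, lower in knockout, were found for 0, 1 and 0 of them in that order. Endothelial markers went the other way, at 542 to 725 CPM in wild-type libraries and 606 to 845 CPM in knockout, with 5 of 6 higher in knockout. None of these markers was at 0 in every library. The part of each of these cell kinds in the class I values was not tested.

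**Figure D3:**
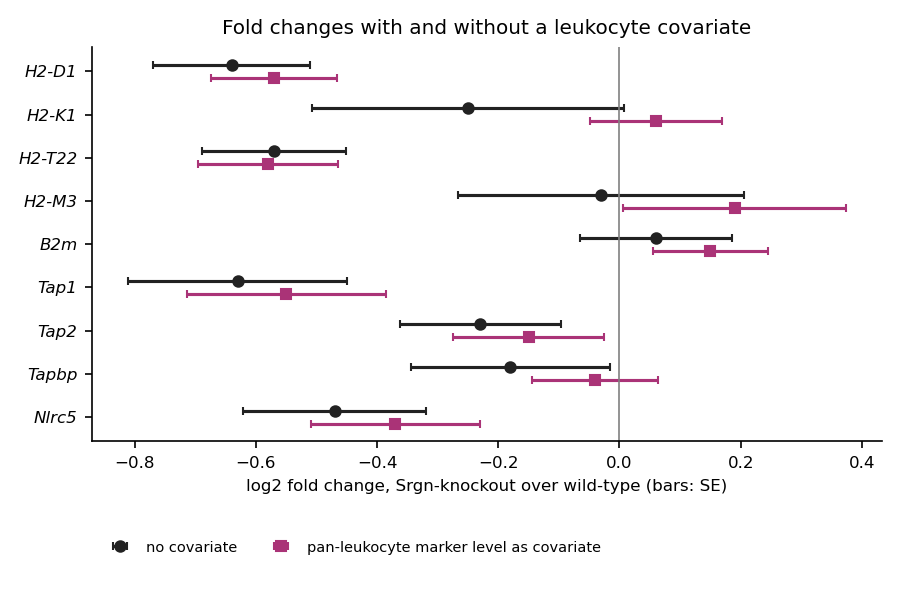
Log2 fold change of Srgn-knockout over wild-type for the 9 genes (horizontal axis; bars are ± SE), from the fit without a covariate (black circles) and with the pan-leukocyte marker mean as a covariate (purple squares). H2-K1 goes from -0.25 to 0.06, Tap2 from -0.23 to -0.15, Tap1 from -0.63 to -0.55 and H2-D1 from -0.64 to -0.57. H2-T22 stands at -0.57 and -0.58.

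By Pearson's r, the transporter and transactivator genes had their highest correlations, among the lists compared, with interferon-induced genes. None of these correlations passed the threshold. With group means subtracted, the mean of 17 interferon-induced genes had r = 0.930 with Tap2 (exact permutation p = 0.0163, adjusted p = 0.0538), r = 0.869 with Nlrc5 (exact permutation p = 0.0108, adjusted p = 0.0531) and r = 0.779 with Tap1 (exact permutation p = 0.0202, adjusted p = 0.0546). Spearman's rho was 0.600, 0.709 and 0.770 in the same order, with exact permutation p = 0.0937, 0.0265 and 0.00757 and adjusted p = 0.154, 0.143 and 0.0681. For Tap2, rho was slightly higher with the mean of the MHC class II genes (0.612, exact permutation p = 0.0748, adjusted p = 0.154). Wild-type 3 and 1 lay farthest from the median, and without them r was 0.423 for Tap2, 0.339 for Nlrc5 and 0.759 for Tap1, so the relations of Tap2 and Nlrc5 rest on those libraries. H2-D1 had r = 0.0537 with the interferon-induced mean (exact permutation p = 0.845, adjusted p = 0.912) and rho = 0.333 (exact permutation p = 0.224, adjusted p = 0.275). The mean of the MHC class II genes had r = 0.873 with H2-K1 (exact permutation p = 0.00451, adjusted p = 0.0425; rho = 0.709, exact permutation p = 0.0356, adjusted p = 0.154; r = 0.636 without wild-type 1 and knockout 2). No other relation with class II passed.

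Between the 9 genes themselves, the 36 pairwise Pearson correlations over the 10 libraries, with group means subtracted, ran from -0.174 (H2-T22 with Nlrc5) to 0.888 (H2-K1 with B2m). These are descriptions, and the values share library depth and composition. H2-K1, B2m and Tapbp were alike, with pairwise r of 0.815 to 0.888. Tap2 and Nlrc5 had r = 0.883. H2-D1 had r = 0.877 with Tapbp, 0.646 with H2-T22 and 0.634 with H2-K1. H2-T22 was the least like the others, with r = 0.336 to the mean of the 9 standardized genes, of which it is one, against 0.649 to 0.910 for the other members.

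The genes most like the mean of the 9, by the same correlation over 10 libraries among genes of at least 5 CPM, were Mmgt1 (r = 0.971), a membrane magnesium transporter, Gna13 (0.969), a G-protein subunit, Acbd3 (0.959), a Golgi protein, and Tyms (0.958), thymidylate synthase. They were followed by M6pr (0.955), a mannose 6-phosphate receptor, Ap2a2 (0.952), an adaptor of clathrin-coated vesicles, Psmb9 (0.950), a subunit of the immunoproteasome, and Vcam1 (0.949), an adhesion molecule of endothelium. Among these 8, Psmb9 alone belongs to the class I lists examined here. These are the highest of 10201 genes over 10 libraries and are a description.

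In the rest of the pathway, 99 genes of 11 lists of related genes were tested and 0 were called. Their median log2 fold change was -0.13, with 67 lower and 32 higher, where 50.3% of all genes were lower. In 2 of the 99 the groups did not overlap, both lower, which is near the 1.38% of all genes. Other heavy chains encoded in the H2 complex had the lower values for 7 of 9 tested genes, with a median of -0.37. H2-Q7, of the Qa-2 family, had 39.5 ± 10.8 CPM in wild-type libraries and 23.6 ± 6.10 CPM in knockout (SD, n = 5; log2 -0.74, SE 0.207, edgeR adjusted p = 0.222), and only wild-type 4 (29.1 CPM) lay below a knockout library, knockout 4 (31.4 CPM). H2-Q7 also held the TGACG and ATTGG pair in its promoter. H2-M2 had 3.58 ± 2.56 and 0.911 ± 0.315 CPM (log2 -1.96, edgeR adjusted p = 0.215), and H2-Bl had 21.3 ± 4.23 and 16.5 ± 1.88 CPM (log2 -0.37, edgeR adjusted p = 0.359). How much sequence these genes share with other heavy chains was not examined. Class I-like heavy chains outside the complex had a median of 0.26 over 3 genes, and of 0.12 without wild-type 1, 0.15 without knockout 3 and 0.11 without the 3 libraries with epididymis RNA: Hfe of iron sensing (298 ± 73.2 and 356 ± 34.5 CPM), Mr1, which presents vitamin metabolites (49.2 ± 6.28 and 59.4 ± 12.3 CPM), and the antibody receptor Fcgrt (391 ± 60.5 and 329 ± 42.8 CPM), with edgeR adjusted p of 0.418 to 0.535.

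Immunoproteasome genes had lower means for 4 of 4 tested members (median -0.33) and none passed. The median was -0.12 with the leukocyte covariate and -0.19 without wild-type 3. Psmb8, a catalytic subunit, had 113 ± 30.4 and 87.4 ± 18.7 CPM (log2 -0.37), Psmb10 had 134 ± 39.1 and 101.5 ± 31.0 CPM (log2 -0.40), and Psmb9 had 43.4 ± 9.52 and 35.7 ± 8.41 CPM (log2 -0.28), with edgeR adjusted p of 0.434, 0.533 and 0.543. The constitutive proteasome core had a median of 0.02, with 4 of 11 lower. Its genes of smallest p were Psmb4 (log2 -0.27), Psmb1 (-0.17) and Psma4 (-0.14), with edgeR adjusted p of 0.368, 0.392 and 0.617. Genes of peptide trimming and heavy chain folding also had values near 0, with 4 of 7 lower, log2 0.12 for the chaperone Canx, -0.14 for Calr and 0.16 for the trimming enzyme Erap1 (edgeR adjusted p of 0.696 to 0.755).

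Factors known to act on class I promoters had lower means for 7 of 9 tested genes (median -0.16), within a narrow range of -0.26 to 0.05. With the leukocyte covariate the median was -0.09, and without a single library it lay between -0.22 (wild-type 1) and -0.10 (knockout 5). Irf2, an interferon regulatory factor, had 65.2 ± 8.35 and 54.6 ± 5.34 CPM (log2 -0.26, edgeR adjusted p = 0.350), Irf1 had 71.5 ± 12.1 and 60.8 ± 7.04 CPM (log2 -0.23, 0.450 by the same test), and Rela, an NF-kappa B subunit, 145 ± 17.1 and 129 ± 12.0 CPM (log2 -0.16, 0.527). Of 9 genes of interferon reception and signalling, 4 were lower (median 0.02, and -0.08 without wild-type 1 or without knockout 4), and 2 had groups that did not overlap, as did 1.38% of all genes in this direction: the kinase Tyk2, at 19.4 ± 2.13 and 14.3 ± 2.05 CPM (log2 -0.43, edgeR adjusted p = 0.247), and Stat2, at 63.9 ± 2.66 and 53.4 ± 6.46 CPM (log2 -0.26, edgeR adjusted p = 0.301). Ifnar1, a chain of the type I interferon receptor, had log2 -0.20 (edgeR adjusted p = 0.466). Interferon-induced genes had lower means for 13 of 17 (median -0.18). The median was -0.04 without wild-type 3 and -0.09 with the leukocyte covariate. Their summed level ran from 455 to 961 CPM among wild-type libraries, with wild-type 3 highest, and from 436 to 483 CPM among knockout libraries. Igtp, an interferon-induced GTPase, had 34.7 ± 27.9 and 16.3 ± 2.54 CPM (log2 -1.10), Gbp2 had log2 -0.39 and Cxcl9 -0.63, with edgeR adjusted p of 0.352, 0.434 and 0.504.

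MHC class II genes, which show peptides from outside the cell to CD4 T cells, had lower means for 9 of 10 tested genes (median -0.26), with Ciita, their transactivator, at log2 -0.55, H2-Ab1 at -0.48 and H2-Eb1 at -0.46 (edgeR adjusted p of 0.377, 0.420 and 0.465). The median of this list was -0.01 with the leukocyte covariate, -0.41 without wild-type 1 and -0.11 without the 3 libraries with epididymis RNA. Of the lymphocyte receptors of class I, 3 of 10 with a row could be tested: the CD8 chains Cd8b1 (log2 -2.06) and Cd8a (-1.83), which are also on the T-cell list and stood at a mean of 2.96 and 2.97 CPM in wild-type, and the inhibitory receptor Pirb (-0.71), with edgeR adjusted p of 0.246, 0.263 and 0.513. Cd8b1 had 2 to 51 reads in a library and Cd8a 2 to 57. The median of the 3 receptors was -1.83, and -1.01 with limma-trend on RPM and -2.43 without knockout 3. With the filter of a mean of at least 5 CPM it was -0.71, the value of Pirb. Genes that lie in the H2 region without a role in antigen presentation stood near 0, with 11 of 17 lower and a median of -0.05. Among them Abcf1 had 133 ± 18.9 and 103 ± 10.63 CPM (log2 -0.36, edgeR adjusted p = 0.247), Flot1 had log2 0.18 and Ring1 0.15, with edgeR adjusted p of 0.389 and 0.562.

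**Figure D4:**
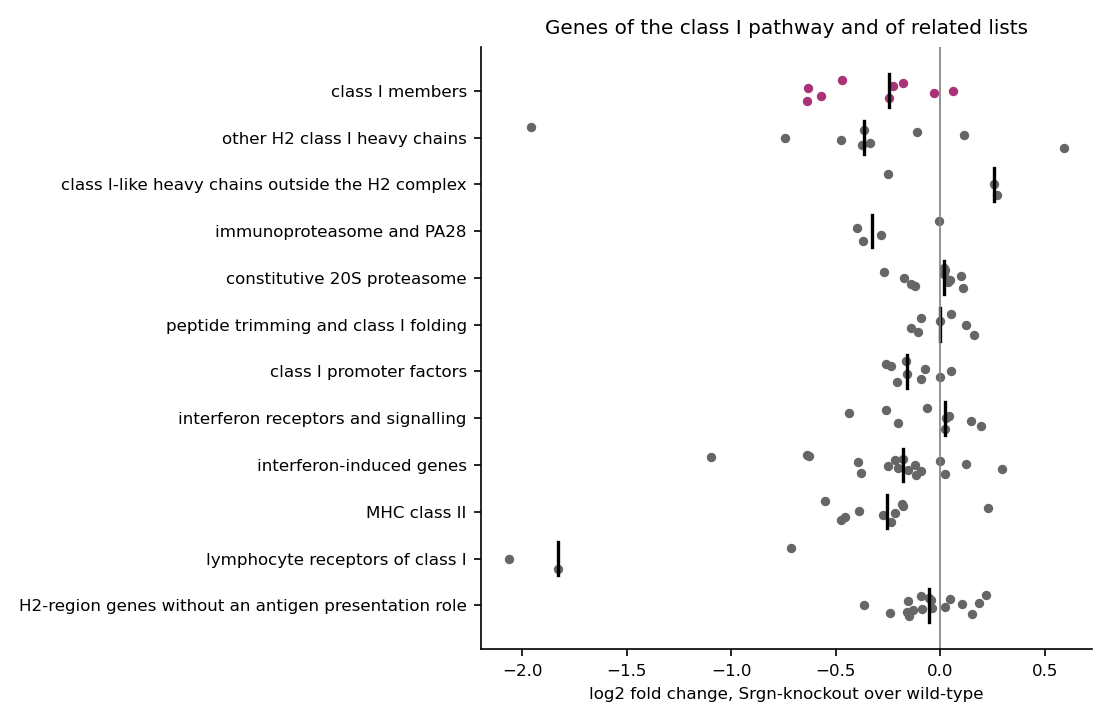
Log2 fold change of Srgn-knockout over wild-type (horizontal axis) for each tested gene of the class I list (purple) and of 11 related lists (grey); black bars are medians. Medians run from -0.37 for other H2 heavy chains and -0.33 for the immunoproteasome to 0.02 for the constitutive proteasome and 0.26 for class I-like genes outside the H2 complex, with -1.83 for 3 lymphocyte receptors. The CD8 chains among those receptors had as few as 2 reads in a library.

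Of the 29 genes that carry the promoter pair, 21 were tested, of which 4 are members. The other 17 had a median log2 fold change of -0.01, with 9 lower and 0 called in edgeR. They included H2-Q7 and the class II gene H2-Aa (log2 -0.24).

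Without the 3 libraries that held most epididymis RNA, log2 fold changes were -0.56 for H2-D1 (SE 0.169), -0.56 for H2-T22 (SE 0.154), -0.58 for Tap1 (SE 0.250), -0.55 for Nlrc5 (SE 0.211), -0.21 for Tap2, -0.19 for H2-K1, -0.17 for H2-M3, -0.09 for Tapbp and 0.11 for B2m. The order of the genes was thus similar, with Tap1, H2-D1, H2-T22 and Nlrc5 lowest.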

How the data were processed

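Total RNA of 10 epididymal fat samples, 5 per genotype, was read with the Ion AmpliSeq mouse transcriptome kit on an Ion S5 XL sequencer, per the labels' protocols. The kit amplifies 1 short target per gene, so levels of different genes are not compared. The submitters' processing notes name build mm9; no aligner or counting tool is named in the labels. The authors deposited raw read counts for 23930 amplicons and an RPM table that equals the counts scaled by column total, within 0.0006.

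Raw counts were tested in R 4.3.3 with edgeR 4.0.16 (filterByExpr with minimum count 10 and minimum total 15, leaving 12719 genes; TMM factors; quasi-likelihood test with robust dispersion, no covariate; Benjamini-Hochberg, threshold 0.05). Fold changes are log2 of knockout over wild-type, and levels are CPM scaled by TMM factors. List means are means of log2 CPM (prior count 2), centred per gene. Alternatives were DESeq2 1.42.0, limma 3.58.1 (voom, and trend on log2 of RPM plus 1), other factors and filters, the leukocyte covariate, and libraries left out. The fit was tested on simulated data. Relations over libraries used 14400 exact permutations within groups. Libraries held 7824764 to 10757779 reads. Amplified reads carry no molecular identifiers, so counts are not numbers of independent molecules. The design text gives 5 mice per genotype. The p-values of the fits weigh the difference between genotypes against the spread between these samples. Permutation p-values concern correlations within the genotypes.

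Members, lists and tests were chosen with earlier results of these data known. All members are named, with the 3 genes of smallest p in each related list, the 8 genes most like the members (mean of at least 5 CPM) and Srgn; the promoter-pair genes H2-Q7 and H2-Aa, and the markers, are named beyond this. Promoter coordinates are of GRCm38.p6 and were joined by symbol alone.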

Additional observations from a re-analysis of the deposited data

Results flagged for a closer look

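In groups of 5, a library was singled out where its gap to the nearest other, as a share of the group's range, was above Dixon's critical value. Of 102 groups examined, 7 had such a library; chance alone singles out about 1 group in 20. None of the 9 class I genes had such a library in either genotype. Of the named related genes, Ciita stood at 66.0 CPM in knockout 1, against 32.6 to 36.9 CPM in the other knockout libraries. Cxcl9 stood at 275 CPM in wild-type 3, against 62.8 to 120.9 CPM. Fcgrt stood at 495 CPM in wild-type 1, against 337 to 377 CPM. H2-Ab1 stood at 616 CPM in wild-type 1, against 1168 to 1363 CPM. Of the marker lists, NK-cell markers summed to 199.8 CPM in knockout 3, against 12.1 to 20.6 CPM. Epididymis markers summed to 462 CPM in wild-type 4, against at most 16.1 CPM in the other wild-type libraries, and to 3533 CPM in knockout 3, against at most 1012 CPM in the other knockout libraries. The part of these libraries in the class I values was not tested beyond the fits that leave them out.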

How the results depend on the processing

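Of 180 values of the 9 class I genes under 20 alternatives, 167 had the direction of the first fit and the same side of the threshold. DESeq2 called 2 members, H2-D1 (log2 -0.64) and H2-T22 (-0.57), where it called 0.841% of all genes as lower, and 2 related genes, H2-Q7 and H2-M2. DESeq2 called 221 genes in all, against 1 in edgeR, 3 with no filter on low counts and 12 with the leukocyte covariate. With 1 library left out, 1 to 2 genes, 0 members and 0 related genes were called, and the median of the members ran from -0.41 (without wild-type 1) to -0.16 (without wild-type 3); H2-D1 ran from -0.70 to -0.56, H2-T22 from -0.64 to -0.51 and H2-K1 from -0.41 (without wild-type 1) to -0.11 (without knockout 2). H2-M3, near 0 throughout, took the other sign with upper-quartile factors (0.01), total reads alone (0.02), the leukocyte covariate (0.19), limma-voom (0.00) and limma-trend on RPM (0.02), and without single libraries, where it ran from -0.18 to 0.10. H2-K1 took the other sign with the leukocyte covariate (0.06), and B2m without knockout 4, its range with 1 library left out being -0.03 to 0.11. The causes were not tested. No paired analysis was possible because the labels give no numbers shared between the genotypes. H2-M3, at 53 to 117 reads, is limited by depth more than the other members.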
